A study of Homo sapiens with 18 samples.

Results

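Described here are H295R cells that stably overexpressed GRα, the isoform of the glucocorticoid receptor that binds ligand, set against H295R cells with the empty vector, both treated for 6 h with ethanol vehicle. H295R is an established human line of adrenocortical carcinoma cells, which secrete steroids. The 2 groups were read from the sample titles, and each held 3 arrays: 6 of the 18 samples of the series, 17 of which have values. GRα cells carried a non-inducible pcDNA4 vector encoding GRα, control cells carried pcDNA4 without an insert, and both were kept without serum for 24 h before the vehicle. The other samples were the same lines given dexamethasone, a synthetic glucocorticoid, or RU486, a receptor antagonist, each at 100 nM. They enter here only to set the line difference under vehicle beside that under each ligand. Each group is 1 stable line, so an effect of the receptor and any other difference between the lines cannot be told apart. Of 29153 probe sets, 21214 had a gene symbol. The 19460 with exactly 1 symbol gave the 18417 genes described, and the 1754 with several symbols are only counted.

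The glucocorticoid receptor is a nuclear receptor that waits in the cytoplasm with heat shock protein chaperones, moves to the nucleus when cortisol binds, and there raises or lowers the transcription of target genes. The adrenal cortex makes cortisol and aldosterone from cholesterol, under the control of corticotropin (ACTH) and angiotensin II. Wnt/beta-catenin signalling sustains the outer cortex, and the chromaffin cells of the adjoining medulla are neuroendocrine.

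All values are the log2 signals that the authors deposited after RMA, so a difference of 1 is a 2-fold difference in array signal. A gene is called higher or lower in GRα cells where its limma p-value, adjusted over all 18417 genes by the Benjamini-Hochberg method, is under 0.05. Replicate B of the GRα vehicle group stood apart. It correlated at 0.990 with replicates A and C, against 0.996 to 0.997 for the other pairs of 1 line and 0.972 to 0.977 for pairs of different lines, and its array weight was 0.19. The median SD of a gene was 0.119 over the 3 GRα arrays and 0.067 over A and C alone, against 0.081 over the 3 control arrays. Counts of called members of a gene list that moved by more than 1.5 times without replicate B are given with and without it. Samples are labelled as biological replicates, but separate cultures are not named, so the p-values speak only of the spread among these arrays, part of which may be technical.

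NR3C1, the receptor gene itself, had log2 values of 7.98, 7.90 and 7.94 in GRα cells, against 7.41, 7.28 and 7.38 in control cells. All 3 GRα arrays lay above all 3 control arrays, a difference of 1.5-fold (log2 difference 0.59 ± 0.07 SE, limma adjusted p = 1.37e-06). Under the ligands the line difference was 0.71 with dexamethasone and 0.61 with RU486. Whether its probe set reads the RNA of the vector was not tested. NR3C2, the gene of the mineralocorticoid receptor, which also binds cortisol, moved the other way, with 5.77, 6.03 and 5.76 in GRα cells, against 6.79, 6.82 and 6.74 in control cells and no overlap (log2 difference −0.93 ± 0.10 SE, limma adjusted p = 1.16e-06). Among 15 measured genes of the receptors and their chaperones, 3 were called higher and 5 lower, where 15% of all genes were called higher and 18.3% lower. BAG1, a co-chaperone of HSP70 that binds the receptor, had 7.83, 8.02 and 8.14 in GRα cells, against 7.23, 7.12 and 7.12 in control cells (log2 difference 0.84 ± 0.08 SE, limma adjusted p = 1.53e-07), and the HSP40 gene DNAJA1 was also higher (0.49 ± 0.08 SE). BAG1 lies among 20 consecutive measured genes of chromosome 9, of which 13 were higher. The adaptor gene STIP1, which hands clients from HSP70 to HSP90 (−0.41 ± 0.06), and the HSP40 gene DNAJB1 (−0.40 ± 0.07) were lower. HSP90AA1, HSP90AB1, FKBP4 and PTGES3, the core of the receptor's HSP90 complex, were not called, with differences of −0.04, 0.16, 0.10 and 0.09.

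**Figure D1:**
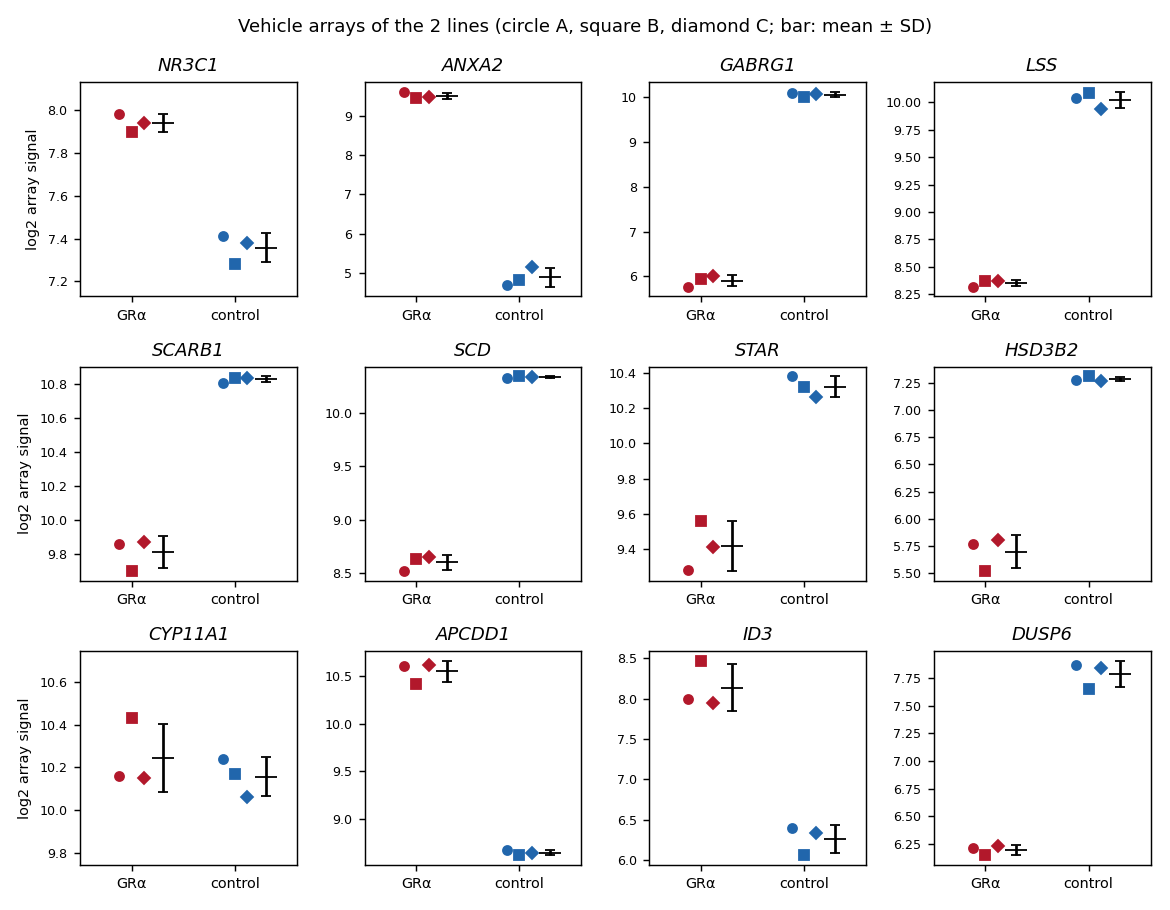
Log2 array signal (RMA) of 12 genes in each vehicle array, GRα cells on the left of each panel and control cells on the right. Points are the arrays and bars are the mean ± SD of 3 arrays. NR3C1, ANXA2, APCDD1 and ID3 lie higher in all GRα arrays, GABRG1, LSS, SCARB1, SCD, STAR, HSD3B2 and DUSP6 lie lower in all of them, and CYP11A1 overlaps.

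In all, 6144 genes (33.4%) were called, 2771 higher and 3373 lower, and the 3 arrays of the lines did not overlap for 40.5% of genes. Most differences were small: 1779 of the higher and 2387 of the lower genes differed by under 0.5 log2, and the median size was 0.39 for genes called higher and 0.37 for genes called lower. The median difference over all genes was 0.008, but it varied with brightness. Ranked by mean signal, each 25% of genes, dimmest first, had a median of 0.053, 0.054, −0.056 and −0.059. Of the 4605 dimmest genes 435 were higher and 220 lower, and of the 4604 brightest 860 were higher and 1293 lower. For the dimmest the median was 0.003 under dexamethasone and 0.026 under RU486. Shares over all genes set beside gene lists below are not matched for brightness. At least 1 log2 apart were 232 higher genes (1.26% of all) and 203 lower genes (1.10%). The ligand-treated arrays are separate samples of the same lines. There 1876 of the 2771 higher genes (67.7%) and 2247 of the 3373 lower genes (66.6%) were called the same way under both dexamethasone and RU486, where 33.3% of all genes were called with dexamethasone (15.7% higher, 17.6% lower) and 29.2% with RU486 (13.1% higher, 16.2% lower). Only 6 higher and 8 lower genes were called the opposite way under either ligand. All 232 and all 203 genes at least 1 log2 apart in vehicle were called the same way under both ligands. The line difference itself changed with dexamethasone for 12 genes (0.0652%) and with RU486 for none (0.00%) by limma at an adjusted p under 0.05. An unadjusted p under 0.05 was found for 1361 and 745 genes, and genes without a change also have such a p, at a rate of 0.05.

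The largest rises included a membrane-binding and a growth cone protein gene. ANXA2, the gene of annexin A2, a calcium-dependent membrane binder, had 9.61, 9.45 and 9.48 in GRα cells, against 4.69, 4.82 and 5.16 in control cells (4.63 ± 0.10 SE). The signal of its pseudogene ANXA2P2, with 8.67, 9.02 and 8.84 in GRα cells, against 5.30, 5.35 and 5.58 in control cells, is not independent, because the sequences are alike. The growth cone gene GAP43 had 9.38, 8.99 and 9.47 in GRα cells, against 5.05, 5.04 and 5.42 in control cells. None of these 3 genes overlapped between the lines, and all had dim control means, a dim value being one under 5.56, the upper bound of the dimmest 25% of genes. For such values detection above background was not tested. HAS2, a hyaluronan synthase gene, had 8.25, 8.07 and 8.33 in GRα cells, against 5.63, 5.88 and 5.68 in control cells (log2 difference 2.48 ± 0.09 SE, limma adjusted p = 6.52e-13). CSRP1, a LIM-domain protein gene of the actin cytoskeleton, had 7.63, 7.68 and 7.59 in GRα cells, against 5.23, 5.30 and 5.30 in control cells (log2 difference 2.36 ± 0.08 SE, limma adjusted p = 4.86e-13). The control signals of CSRP1 were dim. The transcription factor gene TFAP2C had 8.10, 7.72 and 8.21 in GRα cells, against 5.59, 5.92 and 5.95 in control cells (log2 difference 2.19 ± 0.11 SE, limma adjusted p = 1.04e-10). The lysosomal protease gene CTSZ (2.10 ± 0.09) and PTN, which encodes the heparin-binding growth factor pleiotrophin (2.07 ± 0.07), were among the 25 largest rises as well. CCND2, the cyclin D2 gene, was bright in both lines, with 11.39, 11.38 and 11.38 in GRα cells, against 9.02, 8.92 and 8.94 in control cells, so its rise of 2.42 did not rest on a dim group. The lower group's mean was dim for 11 of the 25 largest rises.

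The largest falls included receptor and adhesion genes. GABRG1, which encodes a GABA-A receptor gamma subunit, had 5.77, 5.94 and 6.0 in GRα cells, against 10.11, 10 and 10.08 in control cells (−4.16 ± 0.09 SE), with no overlap. NPY1R, a receptor of neuropeptide Y, had 4.59, 4.85 and 4.84 in GRα cells, against 7.28, 7.11 and 7.12 in control cells (log2 difference −2.41 ± 0.11 SE, limma adjusted p = 1.56e-11). LPAR4, a receptor of lysophosphatidic acid, had 4.79, 5.01 and 4.97 in GRα cells, against 7.27, 7.06 and 7.27 in control cells (log2 difference −2.27 ± 0.09 SE, limma adjusted p = 2.24e-12). Both receptor genes were well separated between the lines, with dim GRα signals. ST3GAL6, a sialyltransferase gene, had 6.65, 6.57 and 6.91 in GRα cells, against 8.88, 8.66 and 8.75 in control cells (log2 difference −2.05 ± 0.09 SE, limma adjusted p = 8.82e-12). NLRP2, of the NOD-like receptor family, fell by 2.27 and the synaptic adhesion gene LRFN5 by 2.0. For 17 of the 25 largest falls the GRα mean was dim, so the size of these falls is of array signal only.

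Called genes were unevenly spread over the chromosomes. On chromosome 15, 311 of 576 genes (54.0%) were higher and 21 (3.65%) lower, with a median difference of 0.27, and the median was 0.27 under dexamethasone and 0.28 under RU486. Chromosome 13 showed the reverse: 158 of 317 genes (49.8%) were lower and 20 higher, with medians of −0.24 in vehicle, −0.22 under dexamethasone and −0.26 under RU486. Lower genes were also frequent on chromosome 21 (93 of 236, 39.4%) and chromosome 19 (356 of 1308, 27.2%). Chromosome 9 had 233 of 732 genes higher (31.8%), chromosome 20 had 124 of 535 (23.2%) and chromosome 22 had 97 of 423 (22.9%). On the other 16 chromosomes with called genes, 9.42% to 19.1% of genes were higher and 13.1% to 24.6% lower. Leaving out GRα replicate B kept these counts close, with 311 higher genes on chromosome 15, 159 lower on 13, 245 higher on 9, 93 lower on 21 and 379 lower on 19.

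**Figure D2:**
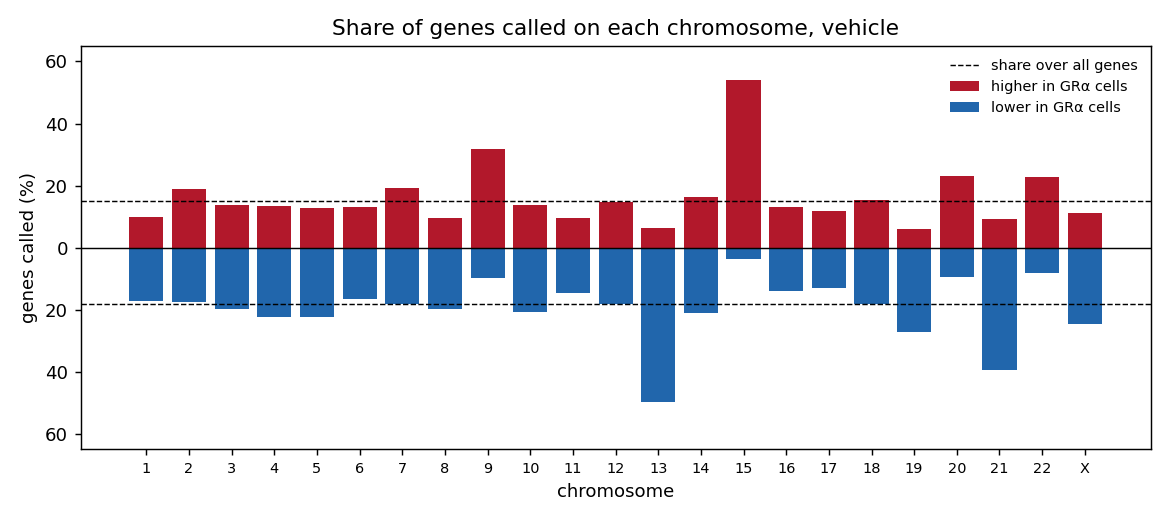
Share of measured genes on each chromosome called higher (upward bars) or lower (downward bars) in GRα than in control cells under vehicle, in percent, by limma at an adjusted p under 0.05, with lines at the shares over all genes (15% and 18.3%). Chromosome 15 has the highest share of higher genes (54.0%) and chromosome 13 the highest share of lower genes (49.8%).

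Within chromosomes, neighbouring genes differed together. The placed genes were cut into 906 consecutive blocks of 20 along the chromosomes, and a block was listed where at least 15 of its 20 genes were called in 1 direction, against a typical 4. There were 13 listed blocks with higher and 10 with lower genes, and without GRα replicate B there were 13 and 8, of which 10 and 8 were the same blocks. Chromosome 15 held 5 of them among its 28 blocks. From RSL24D1 to RNF111, 16 of 20 genes were higher, with block medians of 0.81, 0.66 and 0.93 in the 3 GRα arrays, against 0.04, −0.04 and 0.03 in the 3 control arrays, all relative to the control mean. The line difference of this block was 0.81 in vehicle, 0.94 under dexamethasone and 0.94 under RU486. ADAM10, the metalloprotease gene that sheds surface proteins, lies in it and had 10.67, 10.77 and 10.65 in GRα cells, against 9.68, 9.57 and 9.65 in control cells (log2 difference 1.07 ± 0.06 SE, limma adjusted p = 2.38e-10). The block from CCNB2 to RPS27L, just outside the threshold with 14 higher genes, had a median of 0.83 and holds ANXA2, the cyclin gene CCNB2 and the tropomyosin gene TPM1. In the block from DIS3L to ITGA11, with 17 higher genes, SMAD3, a signal carrier of TGF-beta receptors, had 9.45, 9.11 and 9.48 in GRα cells, against 7.74, 7.92 and 7.89 in control cells (log2 difference 1.5 ± 0.09 SE, limma adjusted p = 3.71e-10). GLCE, an epimerase of heparan sulfate synthesis in the block from CORO2B to PARP6, had 10.65, 10.70 and 10.65 in GRα cells, against 9.24, 9.13 and 9.18 in control cells (log2 difference 1.48 ± 0.06 SE, limma adjusted p = 2.00e-12). The GRα and control arrays of these genes did not overlap.

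Chromosome 2 had 3 listed blocks, from TFPI to NDUFS1 with gaps, and medians of 0.50 to 0.69. FZD7, a Wnt receptor gene in the block from TMEM237 to NDUFS1, had 10.35, 10.02 and 10.37 in GRα cells, against 8.78, 8.84 and 8.76 in control cells (log2 difference 1.45 ± 0.09 SE, limma adjusted p = 5.52e-10), and the neuropilin gene NRP2, a co-receptor of semaphorins and VEGF in the same block, rose by 1.37. This block lay at 0.66, 0.54 and 0.70 in the GRα arrays, against 0.03, −0.05 and 0.04 in the control arrays. On chromosome 20 the block from GPCPD1 to SLX4IP, with 16 higher genes, held the granin gene CHGB and SNAP25, and its medians were 0.61, 0.57 and 0.74 in GRα arrays, against −0.02, −0.01 and 0.03 in control arrays. PLCB1, a phospholipase C gene that acts downstream of Gq-coupled receptors, lies there and had 8.25, 8.16 and 8.47 in GRα cells, against 6.94, 6.91 and 6.97 in control cells (log2 difference 1.36 ± 0.08 SE, limma adjusted p = 4.59e-10). On chromosome 9 the block from DMAC1 to HAUS6 had 15 higher genes, 14 without GRα replicate B, and a median of 0.69. The block that starts at ANXA2P2 had 15 with or without replicate B and a median of 0.41. Its 15 genes, just at the threshold, include ANXA2P2, whose signal is not independent of ANXA2 on chromosome 15. Chromosome 14 had 2 listed blocks, which had 15 higher genes each but 13 and 14, under the threshold, without GRα replicate B. EGLN3, an oxygen-sensing prolyl hydroxylase gene in the block from NOVA1 to CFL2 (13 without replicate B), had 8.07, 8.27 and 8.04 in GRα cells, against 6.40, 6.62 and 6.55 in control cells (log2 difference 1.61 ± 0.08 SE, limma adjusted p = 4.16e-11). PRAME, among the largest rises, lies in a chromosome 22 block with 13 of 20 genes higher.

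Blocks of lower genes lay on chromosomes 13, 7 and 19. The chromosome 13 block from UFM1 to DGKH had 16 lower genes and medians of −0.63, −0.62 and −0.58 in GRα arrays, against 0.06, −0.04 and 0.02 in control arrays. In it NAA16, an auxiliary subunit gene of an N-terminal acetyltransferase, had 6.79, 6.94 and 6.86 in GRα cells, against 8.13, 7.96 and 8.09 in control cells (log2 difference −1.20 ± 0.07 SE, limma adjusted p = 3.71e-10), and the Golgi tether gene COG6 fell by 1.12. NAXD, which repairs damaged NADH and NADPH, ran against its chromosome: it lies on chromosome 13 and had 7.85, 7.94 and 7.94 in GRα cells, against 5.40, 5.58 and 5.43 in control cells (log2 difference 2.44 ± 0.08 SE, limma adjusted p = 6.52e-13). NAXD had a dim control mean of 5.47. Its block had 9 genes lower, including the basement membrane collagens COL4A1 and COL4A2, and 2 higher. The chromosome 7 block from PAPOLB to DAGLB had 15 lower genes, 14 without GRα replicate B. In blocks of 40 genes, of which 444 were made after seeing the results above, 5 were listed as higher at a threshold of 30 genes, 4 on chromosome 15 and 1 on chromosome 20, and 1 as lower, on chromosome 19.

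**Figure D3:**
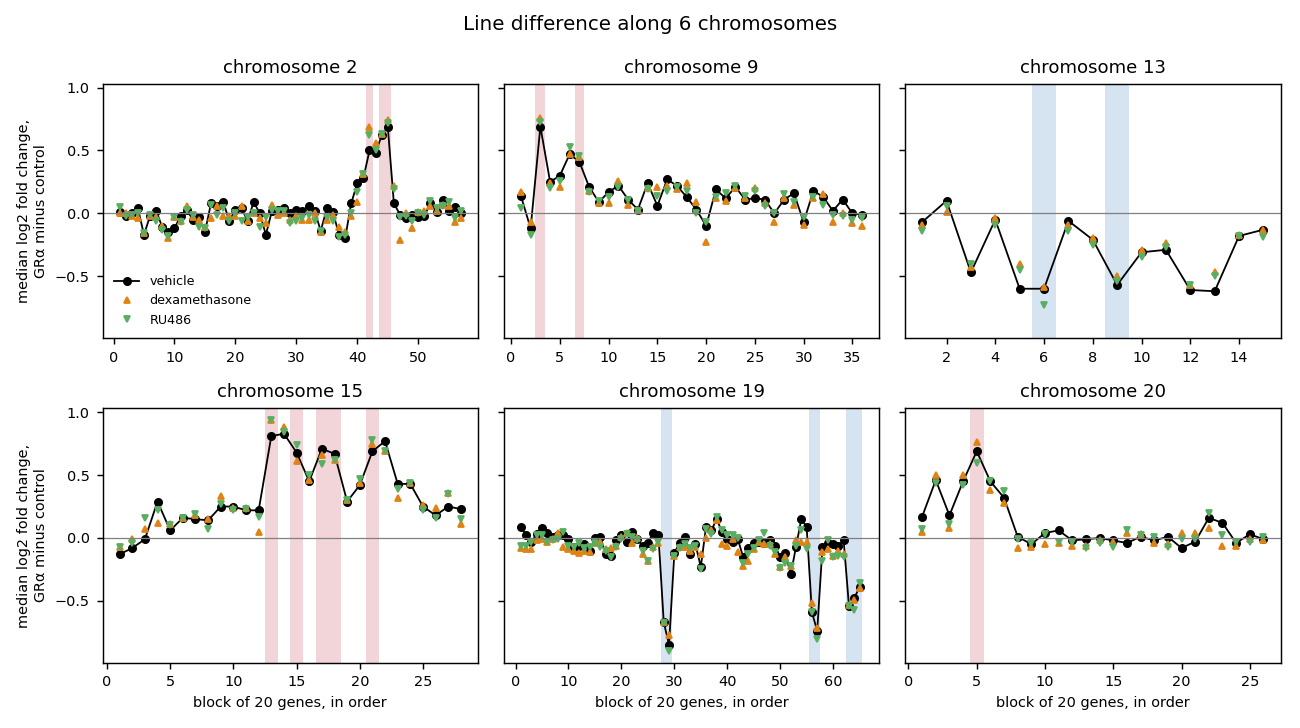
Median line difference (GRα minus control, log2) of consecutive blocks of 20 genes along chromosomes 2, 9, 13, 15, 19 and 20, under vehicle, dexamethasone and RU486, with the listed blocks shaded. The values of the 3 treatments run together, and chromosome 15 lies above 0 along much of its length, with a block from RSL24D1 to RNF111 at 0.81 under vehicle.

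On chromosome 19 a larger share of the zinc finger genes than of the other genes was called lower. KRAB zinc finger proteins, many of which are named ZNF, are repressors that silence transposable elements, and their genes sit in clusters on this chromosome. Of 233 ZNF genes on chromosome 19, 155 (66.5%) were lower and 9 higher, with a median of −0.39. Under dexamethasone 60.9% and under RU486 60.5% of them were lower. Of the 247 ZNF genes on other chromosomes, 68 (27.5%) were lower and 35 higher, and of the 1075 other genes on chromosome 19, 201 (18.7%) were lower and 71 higher. All 7 listed blocks of the chromosome were of lower genes, and 1 of them, from SPACA6 to ZNF480, had 15 lower genes but 14 without GRα replicate B. The block from CCNYL6 to POP4 had medians of −0.78, −0.84 and −0.87 in GRα arrays, against 0.08, −0.12 and 0.02 in control arrays. ZNF675 in it had 4.50, 4.90 and 4.71 in GRα cells, against 7.0, 6.29 and 6.72 in control cells (log2 difference −1.96 ± 0.15 SE, limma adjusted p = 1.36e-08). ZNF85, in the neighbouring cluster from ZNF101 to ZNF100, had 5.75, 5.87 and 5.78 in GRα cells, against 7.33, 7.13 and 7.05 in control cells (log2 difference −1.37 ± 0.09 SE, limma adjusted p = 1.44e-09). The GRα signals of ZNF675 were dim, whereas ZNF737 had 5.55, 6.40 and 6.31 in GRα cells, against 8.07, 7.57 and 7.98 in control cells (log2 difference −1.78 ± 0.17 SE, limma adjusted p = 2.14e-07), and no ZNF gene named here overlapped between the lines. These genes resemble each other in sequence, and whether probe sets read more than their own gene was not tested.

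The genes of steroid hormone synthesis went both ways. Of 22 measured enzymes and carriers, 5 (22.7%) were higher and 9 (40.9%) lower, against 15% and 18.3% of all genes, with a median of −0.12. STAR, which carries cholesterol into mitochondria, had 9.28, 9.56 and 9.41 in GRα cells, against 10.38, 10.32 and 10.26 in control cells (log2 difference −0.91 ± 0.07 SE, limma adjusted p = 3.12e-08). HSD3B2, the adrenal 3-beta-hydroxysteroid dehydrogenase gene, had 5.77, 5.52 and 5.80 in GRα cells, against 7.28, 7.31 and 7.27 in control cells (log2 difference −1.59 ± 0.15 SE, limma adjusted p = 2.06e-07). Both had all GRα arrays below all control arrays. SULT2A1, which sulfates DHEA, had 8.50, 8.61 and 8.44 in GRα cells, against 9.74, 9.49 and 9.58 in control cells (log2 difference −1.09 ± 0.09 SE, limma adjusted p = 4.04e-08). The aromatase gene CYP19A1 had 5.69, 5.38 and 5.86 in GRα cells, against 7.30, 7.25 and 7.32 in control cells (log2 difference −1.64 ± 0.11 SE, limma adjusted p = 3.21e-09), again with no overlap. CYP11A1, the side-chain cleavage enzyme of the first step, was not called, with 10.16, 10.43 and 10.15 in GRα cells, against 10.24, 10.17 and 10.06 in control cells. Nor were CYP11B1 (−0.03) and CYP11B2 (0.0), the last enzymes of cortisol and aldosterone synthesis. POR, which passes electrons to the microsomal P450 enzymes, was higher (0.32 ± 0.07), as was the steroid sulfatase gene STS (0.69 ± 0.10). CYP17A1, needed for cortisol and androgens, was called higher with 9.84, 9.58 and 9.87 in GRα cells, against 9.65, 9.50 and 9.47 in control cells, but control replicate A reached above GRα replicate B, and its call was lost in 4 of the 6 leave-one-out fits (highest limma adjusted p = 0.122).

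Among 21 adrenocortical transcription factors, 8 (38.1%) were higher and 6 (28.6%) lower. NR5A1, the gene of steroidogenic factor 1, had 8.25, 8.16 and 8.49 in GRα cells, against 8.66, 8.72 and 8.69 in control cells (log2 difference −0.39 ± 0.08 SE, limma adjusted p = 9.17e-04), but its line difference was −0.07 under dexamethasone and −0.01 under RU486. Neither change of its line difference was called by limma at an adjusted p under 0.05. GATA6 had 7.87, 7.83 and 7.84 in GRα cells, against 8.41, 8.41 and 8.36 in control cells (log2 difference −0.55 ± 0.07 SE, limma adjusted p = 5.11e-06), and GATA4 was not called (0.03). The orphan nuclear receptor genes NR4A1 (0.43 ± 0.07) and NR4A2 (0.79 ± 0.11), which respond fast to ACTH and angiotensin, were higher. The ACTH receptor gene MC2R had 5.56, 5.27 and 5.61 in GRα cells, against 5.67, 5.53 and 5.29 in control cells and was not called. Of 34 genes of ACTH and angiotensin signalling, 6 (17.6%) were higher and 7 (20.6%) lower, near the 15% and 18.3% of all genes. PRKACA, the catalytic subunit of protein kinase A, had 9.03, 8.96 and 9.09 in GRα cells, against 9.46, 9.43 and 9.35 in control cells (log2 difference −0.39 ± 0.06 SE, limma adjusted p = 1.36e-04). PDE8A, a phosphodiesterase gene that breaks down cAMP and lies on chromosome 15, had 8.84, 8.51 and 8.90 in GRα cells, against 7.88, 7.73 and 7.86 in control cells (log2 difference 0.93 ± 0.08 SE, limma adjusted p = 9.43e-08), and PDE8B was higher too (0.64 ± 0.10), while PDE11A was lower (−0.63 ± 0.08). GNRHR, the receptor of gonadotropin-releasing hormone, fell by 2.87, with dim GRα arrays at 4.87 to 5.17 against control arrays at 7.86 to 7.98.

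Most cholesterol genes were lower in GRα cells. Of 23 measured genes of cholesterol synthesis, uptake and handling, 18 (78.3%) were lower and 2 higher, with a median of −0.54, and the same counts were found under dexamethasone and under RU486. The promoters of the 4 most changed enzymes with a CCAAT box or its complement in the RefSeq window are printed here to show where it lies. They are written 5′ to 3′ on the strand of the gene, from 250 bases before to 50 after the transcript start (GRCh38.p14), with CCAAT and ATTGG in capitals. The positions are chr21:46228725-46229024 for LSS and chr11:71448344-71448643 for DHCR7, both on the minus strand, and chrX:152830813-152831112 for NSDHL and chr4:165327419-165327718 for MSMO1, both on the plus strand.
LSS: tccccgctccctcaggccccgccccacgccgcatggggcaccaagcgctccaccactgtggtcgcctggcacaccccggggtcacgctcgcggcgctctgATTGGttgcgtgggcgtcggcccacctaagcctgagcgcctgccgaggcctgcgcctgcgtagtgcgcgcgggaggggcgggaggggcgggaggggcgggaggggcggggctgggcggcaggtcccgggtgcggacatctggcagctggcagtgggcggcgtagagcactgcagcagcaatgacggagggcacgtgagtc
DHCR7: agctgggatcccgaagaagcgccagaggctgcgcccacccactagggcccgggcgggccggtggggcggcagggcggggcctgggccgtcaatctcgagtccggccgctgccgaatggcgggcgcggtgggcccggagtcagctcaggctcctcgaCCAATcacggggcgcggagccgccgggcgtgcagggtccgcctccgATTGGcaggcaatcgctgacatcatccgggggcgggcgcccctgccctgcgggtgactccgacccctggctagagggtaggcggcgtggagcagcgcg
NSDHL: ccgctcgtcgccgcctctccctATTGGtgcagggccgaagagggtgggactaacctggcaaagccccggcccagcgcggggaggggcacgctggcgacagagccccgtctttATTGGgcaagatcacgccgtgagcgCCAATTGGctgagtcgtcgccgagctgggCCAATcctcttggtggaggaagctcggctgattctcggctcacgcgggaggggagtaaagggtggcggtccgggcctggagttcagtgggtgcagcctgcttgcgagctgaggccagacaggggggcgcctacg
MSMO1: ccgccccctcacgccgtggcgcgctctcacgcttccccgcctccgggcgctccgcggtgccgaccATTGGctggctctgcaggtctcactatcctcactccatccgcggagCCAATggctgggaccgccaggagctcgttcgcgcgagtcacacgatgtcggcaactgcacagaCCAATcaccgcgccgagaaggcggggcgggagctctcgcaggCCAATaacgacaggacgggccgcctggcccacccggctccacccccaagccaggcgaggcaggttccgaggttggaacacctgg
In NSDHL a pair of the matches overlap, since CCAATTGG holds the motif on both strands. CCAAT, on either strand, was in 17 of the 21 list promoters with a RefSeq entry (81.0%) and in 14 of the 17 of these called lower (82.4%). It was in 5166 of the 14237 promoters of all measured genes (36.3%), and in 38.7% of promoters of genes called lower and 35.3% of those called higher. The sterol element TCACNCCAC was in none of the 21 list promoters and in 1.14% of all. The glucocorticoid element, GNACA and TGTNC with 3 bases between them, was in 0.260% of all promoters, in 11 (0.400%) of genes called lower and in 5 (0.229%) of genes called higher. A match is a description of letters, not of binding.

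LSS, the lanosterol synthase gene with 1 match above, had 8.32, 8.37 and 8.37 in GRα cells, against 10.04, 10.08 and 9.94 in control cells (log2 difference −1.67 ± 0.07 SE, limma adjusted p = 3.24e-12). DHCR7, which makes cholesterol in the last step of the Kandutsch-Russell route, had 9.56, 9.98 and 9.65 in GRα cells, against 10.70, 10.76 and 10.65 in control cells (log2 difference −0.97 ± 0.09 SE, limma adjusted p = 2.78e-07). In both genes all GRα arrays lay far below the control arrays. NSDHL, which removes carbon from the 4-position of sterols, had 9.07, 9.21 and 9.18 in GRα cells, against 10.06, 10.07 and 10.03 in control cells (log2 difference −0.90 ± 0.06 SE, limma adjusted p = 3.26e-09). MSMO1, the sterol methyl oxidase gene that acts just before it, had 8.50, 8.49 and 8.54 in GRα cells, against 9.40, 9.20 and 9.39 in control cells (log2 difference −0.82 ± 0.08 SE, limma adjusted p = 1.53e-07). Differences of other genes of the route were −0.63 for the HMG-CoA synthase gene HMGCS1, −0.54 for mevalonate kinase (MVK), −0.71 for IDI1, −0.37 for FDPS, −0.37 for the sterol desaturase gene SC5D and −0.29 for the sterol reductase gene TM7SF2. SCARB1, the receptor through which the adrenal takes up HDL cholesterol, had 9.86, 9.70 and 9.87 in GRα cells, against 10.81, 10.84 and 10.84 in control cells (log2 difference −1.01 ± 0.06 SE, limma adjusted p = 7.74e-10). INSIG1, which holds SREBP proteins in the endoplasmic reticulum and is itself an SREBP target, was lower by 0.74 (−0.74). The exceptions were SQLE, squalene epoxidase, with 9.82, 9.84 and 9.85 in GRα cells, against 9.59, 9.54 and 9.59 in control cells (log2 difference 0.26 ± 0.06 SE, limma adjusted p = 4.05e-03), and SOAT1, which esterifies cholesterol for storage (0.32 ± 0.07). SREBF2, the SREBP-2 gene, was called lower with 7.87, 7.09 and 7.89 in GRα cells, against 8.10, 8.09 and 8.12 in control cells. Replicate B was the lowest GRα array, and the line difference was −0.08 under dexamethasone and −0.10 under RU486. Neither change of the SREBF2 line difference was called by limma at an adjusted p under 0.05.

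Of 22 fatty acid synthesis genes, 9 (40.9%) were lower and none higher, with a median of −0.15. SCD, the stearoyl-CoA desaturase gene, had 8.52, 8.63 and 8.65 in GRα cells, against 10.32, 10.34 and 10.33 in control cells (log2 difference −1.73 ± 0.13 SE, limma adjusted p = 1.19e-08). ELOVL3, a fatty acid elongase gene, had dim signals of 5.19, 5.31 and 5.34 in GRα cells, against 6.75, 6.59 and 6.69 in control cells (log2 difference −1.40 ± 0.13 SE, limma adjusted p = 1.11e-07). Smaller falls were seen in fatty acid synthase, FASN (−0.47 ± 0.10), and ATP citrate lyase, ACLY (−0.43 ± 0.06), while ACACA (−0.13), FADS1 (0.13) and FADS2 (0.06) were not called. SREBF1, whose product drives this group, was lower (−0.67 ± 0.11).

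**Figure D4:**
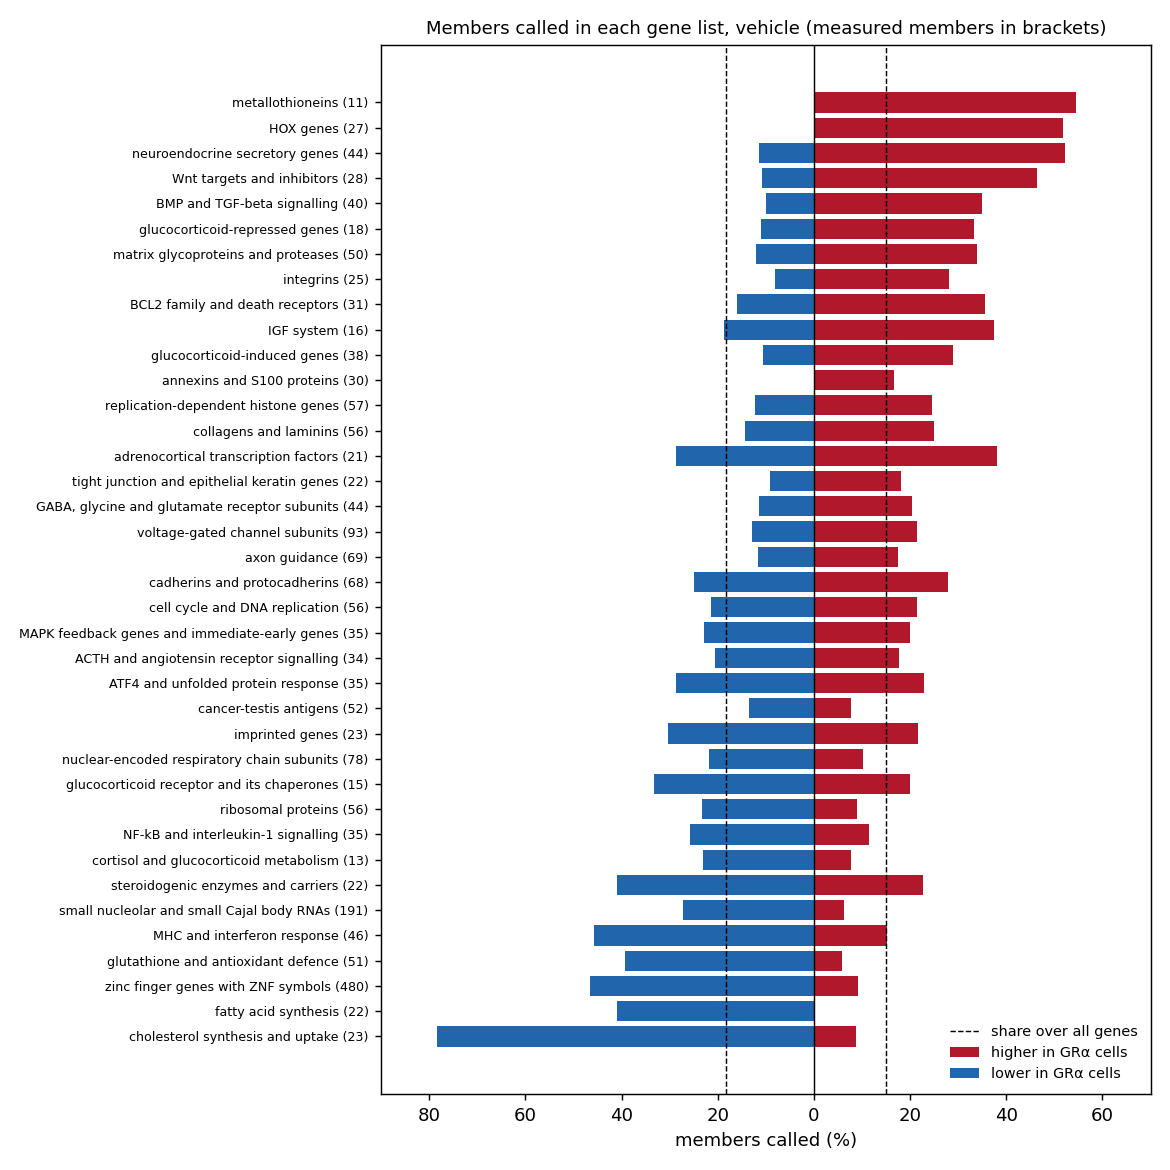
Share of measured members of the gene lists called higher (to the right) or lower (to the left) in GRα than in control cells under vehicle, in percent, with lines at the shares over all genes (15% and 18.3%). Cholesterol synthesis and uptake has the longest bar to the left (78.3%), and metallothioneins (54.5%), neuroendocrine secretory genes (52.3%) and HOX genes (51.9%) have the longest to the right.

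Wnt targets and inhibitors were higher in 13 of 28 cases (46.4%) and lower in 3 (10.7%), against 15% and 18.3% of all genes. APCDD1, an inhibitor at the cell surface, had 10.61, 10.42 and 10.62 in GRα cells, against 8.67, 8.62 and 8.64 in control cells (log2 difference 1.91 ± 0.06 SE, limma adjusted p = 2.72e-13). WNT4, a Wnt ligand needed for the outer adrenal cortex, had 9.20, 9.02 and 9.22 in GRα cells, against 7.39, 7.46 and 7.35 in control cells (log2 difference 1.75 ± 0.07 SE, limma adjusted p = 6.23e-12). AXIN2, a feedback inhibitor and standard reporter of the pathway, had 8.85, 8.61 and 8.73 in GRα cells, against 8.16, 8.11 and 8.07 in control cells (log2 difference 0.62 ± 0.06 SE, limma adjusted p = 4.79e-07), and the transcription factor gene LEF1 had 9.76, 9.53 and 9.71 in GRα cells, against 8.96, 8.88 and 8.99 in control cells (log2 difference 0.73 ± 0.06 SE, limma adjusted p = 8.23e-08). None of these 4 genes overlapped between the lines. DKK2 (1.95 ± 0.10) and DKK3 (1.15 ± 0.09), of the Dickkopf family, were higher and DKK1 (−0.46 ± 0.07), which blocks the LRP co-receptors, was lower. LGR5, the R-spondin receptor gene, was lower in vehicle (−0.30 ± 0.08), with a line difference of 0.32 under dexamethasone. Of 40 genes of BMP and TGF-beta signalling, 14 (35.0%) were higher and 4 lower. ID3, a dominant-negative helix-loop-helix protein gene and BMP target, had 8.0, 8.47 and 7.94 in GRα cells, against 6.39, 6.06 and 6.33 in control cells (log2 difference 1.87 ± 0.14 SE, limma adjusted p = 1.18e-08). ID1 had 7.18, 7.91 and 7.32 in GRα cells, against 5.92, 5.73 and 6.0 in control cells (log2 difference 1.58 ± 0.15 SE, limma adjusted p = 1.42e-07), and in both genes replicate B was the highest GRα array. SMAD6, an inhibitor of BMP signalling on chromosome 15, rose by 1.18, the BMP receptor gene BMPR2, in a listed chromosome 2 block, by 1.0, and the antagonist genes FST by 1.75 and NOG by 0.84. The activin and TGF-beta receptor genes ACVR2A (−0.71 ± 0.09) and TGFBR2 (−0.50 ± 0.07) were lower. In the insulin-like growth factor system 6 of 16 genes were higher and 3 lower: the binding protein genes IGFBP7 (1.77 ± 0.08) and IGFBP3 (1.32 ± 0.08) and IGF1R (0.96 ± 0.10), the receptor gene on chromosome 15, rose, and the insulin receptor gene INSR fell (−0.46 ± 0.09).

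Neuroendocrine secretory genes were higher in 23 of 44 cases (52.3%) and lower in 5, with a median of 0.25. NELL2, a secreted glycoprotein gene of neurons, had 9.30, 9.29 and 9.41 in GRα cells, against 5.52, 5.49 and 5.57 in control cells, and CHGB, which encodes chromogranin B of secretory granules, had 9.0, 9.11 and 9.23 in GRα cells, against 6.33, 6.05 and 6.11 in control cells. The control mean of NELL2 was dim (5.53). SNAP25, a SNARE protein of vesicle fusion, had 8.67, 8.85 and 8.72 in GRα cells, against 6.76, 6.74 and 6.78 in control cells (log2 difference 1.99 ± 0.06 SE, limma adjusted p = 1.66e-13). PAM, which amidates peptide hormones, had 10.93, 10.94 and 10.97 in GRα cells, against 9.59, 9.44 and 9.48 in control cells (log2 difference 1.45 ± 0.06 SE, limma adjusted p = 1.09e-11). All 4 genes were separated between the lines, and CHGB and SNAP25 lie in the same chromosome 20 block. VAMP8, a SNARE of endosomes, ran the other way, with 6.04, 6.40 and 6.31 in GRα cells, against 8.77, 8.75 and 8.59 in control cells (log2 difference −2.45 ± 0.12 SE, limma adjusted p = 5.22e-11), as did the neurofilament gene INA (−1.80 ± 0.09), the adhesion gene NCAM2 (−1.13 ± 0.06) and synaptophysin, SYP (−0.67 ± 0.12). The catecholamine enzymes that define chromaffin cells were not called: TH had 6.58, 6.37 and 6.19 in GRα cells, against 6.13, 6.35 and 6.27 in control cells, and DBH differed by 0.07, DDC by 0.11 and PNMT by 0.15.

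Of 44 receptor subunits for GABA, glycine and glutamate, 9 (20.5%) were higher and 5 (11.4%) lower, against 15% and 18.3% of all genes. GRIA2, an AMPA receptor subunit, had 7.01, 6.73 and 7.06 in GRα cells, against 4.08, 4.11 and 4.09 in control cells, all control arrays being dim, and the NMDA receptor subunit gene GRIN3A had 9.61, 9.18 and 9.60 in GRα cells, against 8.16, 7.99 and 8.15 in control cells (log2 difference 1.36 ± 0.13 SE, limma adjusted p = 1.87e-07). GRIK2, a kainate receptor subunit, was lower (−0.54 ± 0.08). Of 93 voltage-gated channel subunits, 20 (21.5%) were higher and 12 (12.9%) lower. CACNA1C, the L-type calcium channel gene, had 9.61, 9.17 and 9.62 in GRα cells, against 8.37, 8.34 and 8.38 in control cells (log2 difference 1.10 ± 0.10 SE, limma adjusted p = 7.40e-08). SCN2A, a sodium channel gene, rose by 1.32, whereas SCN9A, another sodium channel gene, fell by 1.01 and the potassium channel gene KCND2 was lower too (−1.31), both with dim GRα signals. Of 69 axon guidance genes, 12 (17.4%) were higher and 8 (11.6%) lower, against 15% and 18.3% of all genes. EFNA5, an ephrin ligand gene, had 6.35, 6.07 and 6.47 in GRα cells, against 8.03, 7.76 and 7.72 in control cells (log2 difference −1.53 ± 0.11 SE, limma adjusted p = 4.19e-09), and SLIT2, a repulsive cue, fell by 1.04, while its receptor gene ROBO1 was higher (0.45 ± 0.08).

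Cadherins and protocadherins went both ways, 19 of 68 higher and 17 lower. FAT4, a giant cadherin of planar polarity, had 4.92, 4.67 and 4.66 in GRα cells, against 8.0, 7.85 and 7.95 in control cells, and the protocadherin gene PCDH20, on chromosome 13, had 5.14, 4.94 and 5.20 in GRα cells, against 8.32, 8.16 and 8.17 in control cells. The GRα signals of both were dim. CDH2, N-cadherin, was lower by less, with 10.26, 10.01 and 10.26 in GRα cells, against 10.47, 10.49 and 10.56 in control cells (log2 difference −0.33 ± 0.07 SE, limma adjusted p = 1.52e-03). The protocadherin beta genes lie next to each other in 1 cluster, and their products give neurons surface identities. Of 18 measured members, 2 of them pseudogenes, 5 were higher and 8 lower. PCDHB5 had 9.24, 8.93 and 9.15 in GRα cells, against 7.13, 7.20 and 7.14 in control cells (log2 difference 1.95 ± 0.09 SE, limma adjusted p = 1.24e-11). PCDHB4, its neighbour, had dim signals of 4.32, 4.17 and 4.77 in GRα cells, against 6.74, 6.57 and 6.91 in control cells (log2 difference −2.32 ± 0.17 SE, limma adjusted p = 5.68e-09). The direct neighbours thus moved in opposite directions with no overlap in either, and PCDHB2 (1.41 ± 0.08) was higher while PCDHB1 (−1.0 ± 0.13) and PCDHB7 (−0.87 ± 0.11) were lower.

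**Figure D5:**
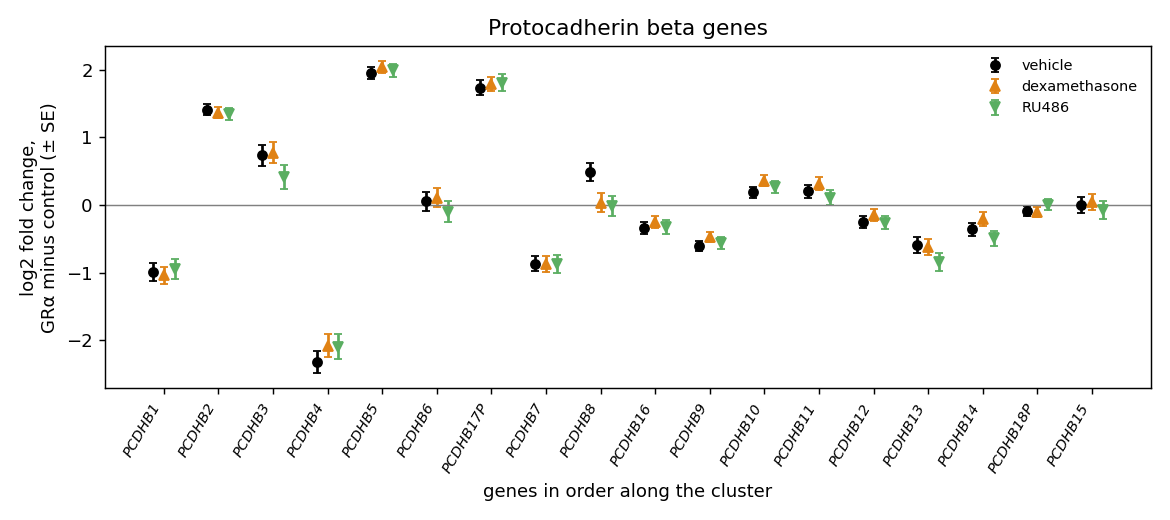
Line difference (GRα minus control, log2 ± SE) of the 18 measured protocadherin beta genes in their order along the cluster, under vehicle, dexamethasone and RU486. PCDHB5 lies at 1.95 and PCDHB4 at −2.32 under vehicle, and PCDHB5 lies above and PCDHB4 below 0 in all 3 treatments.

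In each list of matrix and cell attachment genes given here, more genes were called higher than lower, where 15% of all genes were higher and 18.3% lower. The share called higher was near that of all genes for tight junction and epithelial keratin genes (18.2%) and for annexin and S100 genes (16.7%). Of 50 matrix glycoprotein and protease genes, 17 were higher and 6 lower. SPOCK1, a testican proteoglycan gene, had 10.69, 10.79 and 10.67 in GRα cells, against 9.09, 9.07 and 9.06 in control cells (log2 difference 1.65 ± 0.07 SE, limma adjusted p = 4.76e-12). MMP2, the gelatinase A gene, had 7.18, 7.01 and 7.25 in GRα cells, against 5.50, 5.83 and 5.66 in control cells (log2 difference 1.48 ± 0.09 SE, limma adjusted p = 9.53e-10), and its inhibitor gene TIMP2 was higher too (0.91 ± 0.10). TNC, which encodes tenascin C, had 6.19, 5.61 and 6.14 in GRα cells, against 9.12, 9.01 and 9.20 in control cells, the largest fall among these 50 genes. Of 25 integrin genes, 7 were higher and 2 lower. ITGAV, the alpha-V integrin gene, had 10.51, 10.52 and 10.54 in GRα cells, against 9.18, 9.07 and 9.14 in control cells (log2 difference 1.39 ± 0.06 SE, limma adjusted p = 3.21e-12), in a chromosome 2 block with 13 of 20 genes higher. ITGA5, the fibronectin receptor gene, rose by 0.94 and ITGA9 fell by 0.57. Of 56 collagen and laminin genes, 14 were higher and 8 lower, among them COL25A1 (1.77 ± 0.07), LAMB1 (0.89 ± 0.07) and COL11A1 (−0.96 ± 0.06). Of 22 tight junction and epithelial keratin genes, 4 were higher and 2 lower, and 3 and 1 without GRα replicate B. Of 30 annexin and S100 genes, 5 were higher and none lower. ANXA1, which encodes annexin A1, a glucocorticoid-induced protein in many cells, had 7.67, 7.72 and 7.79 in GRα cells, against 6.37, 6.32 and 6.42 in control cells (log2 difference 1.35 ± 0.08 SE, limma adjusted p = 5.96e-10). S100A10, the partner of annexin A2, had 9.10, 8.99 and 9.07 in GRα cells, against 7.99, 7.87 and 8.12 in control cells (log2 difference 1.06 ± 0.11 SE, limma adjusted p = 6.50e-07).

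Of 35 feedback genes of the MAP kinase pathway and immediate-early genes, 7 were higher and 8 lower. DUSP6, a phosphatase of ERK, had 6.21, 6.15 and 6.23 in GRα cells, against 7.87, 7.65 and 7.84 in control cells (log2 difference −1.59 ± 0.08 SE, limma adjusted p = 6.84e-11). DUSP10, a phosphatase of p38 and JNK, had 5.76, 5.64 and 5.78 in GRα cells, against 7.84, 7.65 and 7.61 in control cells (log2 difference −1.98 ± 0.11 SE, limma adjusted p = 1.89e-10). SPRY2, an inhibitor of receptor tyrosine kinase signalling on chromosome 13, had 5.16, 4.83 and 5.25 in GRα cells, against 6.47, 6.51 and 6.47 in control cells (log2 difference −1.40 ± 0.10 SE, limma adjusted p = 3.55e-09). All 3 were separated between the lines, with dim GRα signals for SPRY2. EGR1 (0.43 ± 0.08), FOS (0.45 ± 0.08), FOSL2 (0.61 ± 0.09) and PHLDA1 (0.69 ± 0.06) were higher. Of 35 NF-kB and interleukin-1 genes, 4 (11.4%) were higher and 9 (25.7%) lower. IL1R1, the interleukin-1 receptor gene, had 7.65, 7.35 and 7.83 in GRα cells, against 5.92, 5.75 and 5.67 in control cells (log2 difference 1.83 ± 0.11 SE, limma adjusted p = 5.53e-10), and its line difference was 2.68 under dexamethasone. The change of this line difference was not called by limma at an adjusted p under 0.05. IL1RAP, the accessory chain of the same receptor, had 5.59, 5.42 and 5.76 in GRα cells, against 7.01, 6.78 and 6.89 in control cells (log2 difference −1.30 ± 0.09 SE, limma adjusted p = 4.69e-09), so the chains of the receptor moved apart. NFKB1 fell by 1.01 and REL by 0.71. Of 46 MHC and interferon genes, 21 (45.7%) were lower and 7 higher. XAF1, a pro-apoptotic interferon target, had dim signals of 5.47, 5.09 and 5.19 in GRα cells, against 7.46, 7.34 and 7.49 in control cells (log2 difference −2.18 ± 0.09 SE, limma adjusted p = 2.87e-12). The viral RNA sensor gene IFIH1 (−1.03 ± 0.12), TRIM22 (−1.11 ± 0.07) and the tethering factor gene BST2 (−0.84 ± 0.08) were lower, and GBP2 (0.86 ± 0.12) and B2M, the invariant chain of MHC class I (0.32 ± 0.07), were higher.

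Antioxidant genes were lower in 20 of 51 cases (39.2%) and higher in 3. GPX7, a peroxidase of the endoplasmic reticulum, had 5.55, 5.98 and 5.44 in GRα cells, against 8.38, 8.21 and 8.28 in control cells (log2 difference −2.63 ± 0.11 SE, limma adjusted p = 7.05e-12). TXNIP, which binds thioredoxin and restrains glucose uptake, had 8.19, 8.36 and 8.29 in GRα cells, against 10.35, 10.44 and 10.35 in control cells (log2 difference −2.10 ± 0.10 SE, limma adjusted p = 2.47e-11). GSTA1, a glutathione transferase abundant in steroid-making cells, had 9.64, 9.66 and 10 in GRα cells, against 10.99, 10.90 and 10.93 in control cells (log2 difference −1.17 ± 0.11 SE, limma adjusted p = 2.45e-07). GSTA2, a close copy of it, fell by 1.94, and its probes may share signal with GSTA1, which was not tested. HMOX1, heme oxygenase 1, was higher (0.72 ± 0.07). Of 11 metallothionein genes, 6 were higher and none lower, and without GRα replicate B 4 were higher, the calls of MT2A and MT4 being lost. Over the 6 leave-one-out fits MT2A lost its call in 3 and MT4 in 4, with highest limma adjusted p-values of 0.0974 and 0.272. MT1X had 10.15, 10.52 and 10.19 in GRα cells, against 9.69, 9.77 and 9.75 in control cells (log2 difference 0.55 ± 0.08 SE, limma adjusted p = 2.79e-05), replicate B being the highest. Of 35 genes of the ATF4 and unfolded protein responses, 8 (22.9%) were higher and 10 (28.6%) lower, against 15% and 18.3% of all genes. The cationic amino acid transporter gene SLC7A1 (−1.37 ± 0.09) and the chaperone gene DNAJC3 (−1.18 ± 0.07), both on chromosome 13, fell most, and SDF2L1, an endoplasmic reticulum chaperone gene on chromosome 22, rose by 0.99.

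Of 27 HOX genes, which set position along the body axis, 14 (51.9%) were higher and none lower. The counts were 10 without GRα replicate B, 10 under dexamethasone and 7 under RU486, and 7 of the 14 had a dim mean over all arrays. HOXB2 had 6.10, 6.05 and 5.99 in GRα cells, against 5.27, 5.24 and 5.28 in control cells (log2 difference 0.78 ± 0.06 SE, limma adjusted p = 1.51e-08). Of 57 replication-dependent histone genes, 14 (24.6%) were higher and 7 (12.3%) lower, against 15% and 18.3% of all genes. But 10 were higher and 25 lower without GRα replicate B, and 6 were higher and 19 lower under dexamethasone. Under RU486 11 were higher and 8 lower. H3C11, a histone H3 gene, had 6.31, 7.60 and 6.51 in GRα cells, against 9.69, 9.55 and 9.38 in control cells (log2 difference −2.73 ± 0.21 SE, limma adjusted p = 1.84e-08), replicate B being the highest GRα array. H1-5, a linker histone gene, had 8.28, 9.06 and 8.41 in GRα cells, against 9.81, 9.54 and 9.72 in control cells (log2 difference −1.11 ± 0.14 SE, limma adjusted p = 8.72e-06). Of 191 small nucleolar and Cajal body RNAs, which guide RNA modification, 52 (27.2%) were lower and 12 higher. Of 23 imprinted genes, 5 (21.7%) were higher and 7 (30.4%) lower. DLK1, a marker of adrenal progenitor cells, had 10.30, 10.41 and 10.44 in GRα cells, against 11.05, 11.13 and 11.09 in control cells (log2 difference −0.71 ± 0.06 SE, limma adjusted p = 7.74e-08). Of 52 cancer-testis antigen genes, 4 (7.69%) were higher and 7 (13.5%) lower, both under the shares of all genes (15% and 18.3%). MAGEC1 (1.96 ± 0.07) was next to PRAME among the rises.

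Of 56 ribosomal protein genes, 5 (8.93%) were higher and 13 (23.2%) lower, and 9 and 17 without GRα replicate B. RPS6, on chromosome 9, had 11.72, 11.87 and 11.77 in GRα cells, against 11.20, 11.06 and 11.07 in control cells (log2 difference 0.68 ± 0.06 SE, limma adjusted p = 6.15e-08). RPLP1, on chromosome 15, had 12.01, 12.08 and 12.04 in GRα cells, against 11.32, 11.43 and 11.38 in control cells (log2 difference 0.66 ± 0.06 SE, limma adjusted p = 6.07e-08). RPL28, on chromosome 19, had 9.87, 9.83 and 9.75 in GRα cells, against 10.55, 10.55 and 10.48 in control cells (log2 difference −0.71 ± 0.06 SE, limma adjusted p = 3.12e-08). Of 78 respiratory chain subunits, 8 (10.3%) were higher and 17 (21.8%) lower, against 15% and 18.3% of all genes. NDUFS1 (0.71 ± 0.07) in the chromosome 2 block and COX5A (0.50 ± 0.06) on chromosome 15 were among the rises. Of 56 cell cycle and replication genes, 12 (21.4%) were higher and 12 (21.4%) lower, against 15% and 18.3% of all genes. CCND3, the cyclin D3 gene, had 7.54, 7.71 and 7.65 in GRα cells, against 8.41, 8.39 and 8.29 in control cells (log2 difference −0.73 ± 0.08 SE, limma adjusted p = 8.67e-07), opposite to CCND2, and CCNE1 fell by 0.51. The cell cycle inhibitor genes CDKN2A (0.95 ± 0.06) and CDKN2B (0.97 ± 0.08), neighbours on chromosome 9, the proliferation marker gene MKI67 (0.41 ± 0.06) and its regulator FOXM1 (0.52 ± 0.09) were higher. FOXM1 and CCND2 lie in the same chromosome 12 block, with 9 of 20 genes higher and none lower. MKI67 lies in a chromosome 10 block with 10 of 20 genes higher and 1 lower. Of 31 BCL2 family and death receptor genes, 11 (35.5%) were higher and 5 (16.1%) lower. The TRAIL receptor genes TNFRSF10A (0.89 ± 0.10) and TNFRSF10B (0.81 ± 0.08) and FAS, with 7.51, 7.78 and 7.72 in GRα cells, against 7.0, 6.75 and 6.89 in control cells, were higher, and BCL2, which blocks cell death, was lower (−0.50 ± 0.06).

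Known glucocorticoid targets went both ways. Of 38 genes that glucocorticoids induce in many cell types, 11 (28.9%) were higher and 4 (10.5%) lower, against 15% and 18.3% of all genes. The median was 0.14, and without GRα replicate B 9 were higher and 5 lower. SGK1, a kinase of sodium transport, had 8.06, 8.19 and 8.06 in GRα cells, against 7.35, 7.11 and 7.36 in control cells (log2 difference 0.83 ± 0.07 SE, limma adjusted p = 7.42e-08), and its line difference was 1.19 under dexamethasone. That change of the line difference was not called by limma at an adjusted p under 0.05. GADD45A, a growth arrest gene, had 7.45, 7.61 and 7.72 in GRα cells, against 6.60, 6.53 and 6.70 in control cells (log2 difference 0.98 ± 0.08 SE, limma adjusted p = 1.77e-08). TSC22D3, which encodes the anti-inflammatory protein GILZ, went the other way, with 7.12, 7.72 and 7.30 in GRα cells, against 7.98, 8.12 and 7.99 in control cells (log2 difference −0.65 ± 0.11 SE, limma adjusted p = 1.90e-04). MAOA, monoamine oxidase A, was also lower, with 5.29, 5.03 and 4.94 in GRα cells, against 5.88, 5.91 and 5.82 in control cells (log2 difference −0.78 ± 0.08 SE, limma adjusted p = 7.47e-07), and so was RGS2, a brake on G protein signalling (−1.0 ± 0.08). The classic early targets PER1 (−0.10) and ZBTB16 (0.09) were not called in vehicle, and DUSP1, a MAP kinase phosphatase gene, was higher by a small amount (0.28 ± 0.07). Of 18 genes that glucocorticoids repress, 6 (33.3%) were higher and 2 (11.1%) lower, NR3C1 among the higher ones, and 4 and 2 without replicate B. VCAM1, an adhesion molecule of inflammation, was lower (−0.59 ± 0.07) and FOS higher. Of 13 genes of cortisol metabolism and transport, 1 (7.69%) was higher and 3 (23.1%) lower, and 1 and 5 without replicate B. ABCB1, a pump that exports cortisol, had 11.36, 11.21 and 11.36 in GRα cells, against 11.05, 11.03 and 11.08 in control cells (log2 difference 0.25 ± 0.06 SE, limma adjusted p = 2.95e-03), CYP3A5, which hydroxylates it, was lower (−0.64 ± 0.09), and HSD11B1 (0.17) and HSD11B2 (−0.14), which interconvert cortisol and cortisone, were not called.

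Markers of the labelled cell type and of others were measured last. The summed linear signal of 15 adrenocortical markers was 5384 to 5482 in GRα arrays, against 7346 to 7703 in control arrays, and 8 of the 15 were lower and 1 higher. Without GRα replicate B 6 were lower, as were 6 under dexamethasone and 6 under RU486. STAR, SCARB1, SULT2A1 and HSD3B2, whose falls are given above, are among the 15, and no sum without them was made. Of the 15, CYP17A1, STAR, NR5A1 and SCARB1 had signals above the dim range in both lines, while 2 others had a dim mean over all arrays. Detection above background was not tested. In such bulk samples fewer cells of a type and less RNA per cell cannot be told apart. The 9 chromaffin markers summed to 932 to 1033 in GRα arrays, against 441 to 449 in control arrays, with CHGB and CHGA called higher, none lower and 4 of the 9 dim. Without CHGB, of the chromosome 20 block, the other 8 summed to 380 to 480 in GRα arrays, against 360 to 383 in control arrays, a sum added after seeing the data, and the groups overlapped. The 11 fibroblast markers summed to 3627 to 3806 in GRα arrays and 2848 to 2897 in control arrays, with 4 higher, among them vimentin, VIM (0.43 ± 0.06), and 5 dim. The 11 endothelial markers summed to 503 to 545 in GRα arrays and 460 to 512 in control arrays, with 2 called higher, 1 without GRα replicate B, and 8 dim. The 11 leukocyte markers summed to 409 to 422 in GRα arrays and 376 to 405 in control arrays, with 1 higher and 9 dim. Of 10 epithelial markers 1 was higher, of 7 kidney markers none was called, and of 9 hepatocyte markers 1 was higher and 1 lower. These summed to 1093 to 1190, 561 to 639 and 335 to 350 in GRα arrays, against 962 to 1037, 523 to 558 and 311 to 329 in control arrays. Dim were 3 of the 10 epithelial, 3 of the 7 kidney and 7 of the 9 hepatocyte markers. Which part other cell types had in the gene groups above was not tested.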

How the data were processed

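RNA from H295R cells was measured on Affymetrix HuGene 1.0 ST arrays, and the authors deposited 1 table of log2 values over 29153 probe sets. The submitters' processing notes name RMA, which corrects background, quantile-normalizes and summarises probes, and limma. A genome build, versions and settings were not given in the sources used here. Normalizing by quantiles would hide a shift of most RNAs 1 way. The array of GRα RU486 replicate A has no values, having failed quality control per the labels. The deposited log2 values ran from 2.07 to 14.15, with array medians of 6.28 to 6.35, no arrays were identical, and the number of arrays limits the precision.

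Probe sets were named from the platform annotation, updated through a RefSeq table that matched 19429 of those with 1 symbol. Another 7939 had no symbol. For the 769 genes with several probe sets, the brightest on average was used. The line differences in vehicle, dexamethasone and RU486 are contrasts of group means fitted to 17 arrays by limma 3.58.1 in R 4.3.3, with 11 residual and 5.89 prior degrees of freedom, two-sided, with Benjamini-Hochberg adjustment over 18417 genes. Errors are standard errors (SE) of this fit or SD over arrays. The fit was tested on simulated data. Gene order came from the RefSeq gene table and promoters from RefSeq (GRCh38.p14), none being used for coordinates of the arrays.

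The members, the 47 lists (2114 distinct genes) and the tests were chosen with earlier results of these data known, and 1 list is not reported here. The rule names NR3C1, the 25 largest rises and falls without overlap, up to 6 called members of a list each way, all members of 4 receptor, steroid and cholesterol lists, and up to 5 genes of a block. MC2R, AXIN2, LEF1, CDH2, MKI67, FOXM1, TH, DBH, DDC, PNMT, PER1, ZBTB16, HSD11B1, HSD11B2, ACACA, FADS1 and FADS2 lie outside it and were chosen after their values were seen. The alternatives tried were median centring or a repeated quantile normalization, a filter on dim genes, eBayes with trend or robust settings, array weights, other gene units, the 6 vehicle arrays alone, a block for the replicate letter, stricter thresholds, and fits without each array.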

Additional observations from a re-analysis of the deposited data

Results flagged for a closer look

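For 12 genes (0.0652% of those tested) the difference between the lines itself changed with dexamethasone, by the limma test of the interaction (adjusted p 1.53e-03 to 4.14e-02). Counts at an unadjusted p under 0.05 were 1361 for dexamethasone and 745 for RU486, where no gene passed the adjusted threshold. Genes without a change also have such a p, at a rate of 0.05, so these are not counts of changed genes. The change, as the line difference under dexamethasone minus that in vehicle, was 1.35 log2 for TMEM100, an endothelial and lung membrane protein gene, whose line difference was 1.20 under dexamethasone and −0.16 in vehicle. ZBTB16, a zinc finger repressor and known glucocorticoid target, changed by 1.07. RASGRF1, a Ras exchange factor gene on chromosome 15, changed by 1.03, with line differences of 1.17 under dexamethasone and 0.14 in vehicle. The olfactory receptor gene OR7A5 changed by 0.95 and NNMT, nicotinamide N-methyltransferase, by 0.88. MAOA, monoamine oxidase A, changed by 0.85, its difference being 0.07 under dexamethasone and −0.78 in vehicle. Smaller changes were those of SYDE2 (0.81), VCL, the vinculin gene (0.72), LGR5 (0.62), GREB1L (0.59), CSRNP1 (0.59) and JADE1 (0.53). These changes include the response to the ligand in either line and say nothing of unliganded receptor.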

How the results depend on the processing

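No direction of a named gene was turned by any alternative that was run. Of 561 named genes 536 were called, and 489 kept their call in each of 6 leave-one-out fits and 489 with only the 6 vehicle arrays. The 6144 calls became 6003 after another quantile normalization, 6111 after median centring (3048 higher, 3063 lower), 5891 without dim genes, 6341 with an intensity trend, 6570 with array weights, 4513 from the 6 vehicle arrays, 4356 at an adjusted p under 0.01 and 5015 to 6290 with 1 array left out. Testing against a difference of 0.25 log2 left 2040 calls, 1013 higher and 1027 lower. The NR3C1 difference stayed at 0.55 to 0.61 with 1 array left out. Replicate letters did not pair the samples (same-letter correlation −0.21 to 0.08); with the letter as a replicate block 5967 genes were called, and in the 6 vehicle arrays alone 4172, of which 2235 lower, with the cause not tested. The 12 changes of the line difference with dexamethasone became 19 with a trend, 22 with array weights, 5 at an adjusted p under 0.01, 8 with the replicate block and 6 to 15 with 1 array left out, 6 without control replicate A or C; the cause was not tested. In probe sets with several symbols, an added fit called 268 higher and 255 lower (29.8%).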
